A study of Mus musculus with 2 samples.

Results

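The genes described here are 10 mouse microRNA genes known mainly from epithelia, sense organs and hormone-secreting cells: the mir-200 family in its clusters Mir200b/Mir200a/Mir429 and Mir200c/Mir141, the sensory cluster Mir183/Mir96/Mir182, and the single genes Mir203 and Mir375. They were chosen by symbol, and all 10 were found among the 2202 microRNA genes counted. MicroRNA-seq was performed on hippocampus, labelled as a layer of it, from female B6CASTF1/J mice, offspring of a cross between C57BL/6J and the wild-derived strain CAST, at 10 days of age. There were 2 libraries of 1 group, called biological replicates 1 and 2, each from a pool of 3 females, with no treatment named and small RNA below 30 nt sequenced. With a single group no condition could be compared, so levels, composition and the difference between the libraries were measured. The pools share 1 donor entry, and p-values between them cover only the difference of these libraries.

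A microRNA is cut from a hairpin in a longer transcript, and 1 arm of the hairpin is loaded into an Argonaute protein. Bases 2 to 8 of that arm, the seed, pair with messenger RNAs and lower their output. The mir-200 family keeps cells epithelial by repressing the Zeb transcription factors, which switch off E-cadherin. The Mir183 cluster is known from photoreceptors, hair cells and sensory neurons. Mir203 promotes differentiation of skin epithelium, and Mir375 is known from pancreatic islets and the pituitary, where it affects hormone secretion.

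The mature sequences show how closely the genes of each family resemble each other. They are given 5′ to 3′ for the arm usually more abundant, from RefSeq (GRCm38.p6), with the seed in capitals. All 10 hairpins were found in that table at the positions of the annotation. For Mir375 the hairpin is shown, with its annotated 5p arm in capitals, because the 3p arm is missing from that table. These capitals mark neither a seed nor the more abundant arm, and no seed is given for Mir375.
miR-200b-3p: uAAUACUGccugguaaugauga
miR-200c-3p: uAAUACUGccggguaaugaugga
miR-429-3p: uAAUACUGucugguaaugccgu
miR-200a-3p: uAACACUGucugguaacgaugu
miR-141-3p: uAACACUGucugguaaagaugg
miR-183-5p: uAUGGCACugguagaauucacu
miR-96-5p: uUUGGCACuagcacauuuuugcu
miR-182-5p: uUUGGCAAugguagaacucacaccg
miR-203-3p: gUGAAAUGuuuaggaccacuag
Mir375 hairpin: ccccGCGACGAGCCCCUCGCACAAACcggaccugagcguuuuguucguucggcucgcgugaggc

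Among the mir-200 genes, 3 share the seed AAUACUG and 2 share AACACUG. The seeds differ at 1 base, U4C from miR-200b-3p to miR-200a-3p, with positions counted from 1 at the 5′ end of the mature arm. Each mir-200 cluster holds both seeds. miR-200b-3p and miR-200c-3p, which come from different chromosomes, differ at 2 of 22 positions, whereas miR-200b-3p and its neighbour miR-200a-3p differ at 4. miR-200a-3p and miR-141-3p also differ at 2 positions and share a stretch of 16 nt. miR-96-5p and miR-182-5p differ at 1 seed base, C8A, and miR-183-5p and miR-96-5p at 1, A2U. Of 1738 mature mouse sequences in the table, none outside the mir-200 family has either of its seeds. The seed of miR-96-5p was also found in miR-1271-5p of Gm24195, which had no count in either library.

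The clusters are compact and lie on the minus strand (GRCm38, mm10). Mir200b, Mir200a and Mir429 span 1846 bases at chr4:156053905-156055750, in introns of Ttll10, a gene of the tubulin tyrosine ligase family. They also lie within the non-coding gene Gm13648, Mir429 in an exon and the others in introns. Mir200c and Mir141 span 477 bases at chr6:124717914-124718390, in an intron of the non-coding gene Gm15884 and 2316 bases from Ptpn6, which encodes a phosphatase. Mir141 also overlaps in part an exon of the annotated gene Gm29008. The sensory cluster spans 3820 bases at chr6:30165918-30169737, outside any longer annotated gene, with the non-coding gene Rncr4 on the opposite strand 3155 bases away. Mir203 lies at chr12:112130880-112130955 on the plus strand, in no other gene and 3320 bases past Aspg. Mir375 lies at chr1:74900658-74900721 on the minus strand, between Cryba2, which encodes a lens crystallin, and Cfap65.

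All 10 genes together were rare in the hippocampus. They held 3067 of 5479267 sense counts on microRNA genes in replicate 1 and 2184 of 3563226 in replicate 2. These are 0.0560% (95% Clopper-Pearson interval 0.0540 to 0.0580) and 0.0613% (0.0587 to 0.0639), or 0.0586% ± 0.00376 (SD, n = 2). Mir375 supplied 69.0% of them in replicate 1 and 68.2% in replicate 2, and its counts were 2.23 and 2.15 times those of the other 9 genes together. Without Mir375, the 9 genes held 174 counts per 1000000 sense counts (CPM) in replicate 1 and 195 CPM in replicate 2. Because the reads carry no molecular identifiers and may be copies, every interval and every limit for a count of 0 covers counting error alone.

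Detection required at least 10 counts in each library. By that rule 7 of the 10 genes were detected, beside 19.5% of all 2202 genes. Mir200a and Mir141 had counts in both libraries but missed the minimum, and Mir96 had none. MicroRNA reads cover a mature arm of about the same length, so levels are reads per gene with no scaling by length. They do not give molecules, because how well each sequence is captured in a library was not measured.

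**Figure D1:**
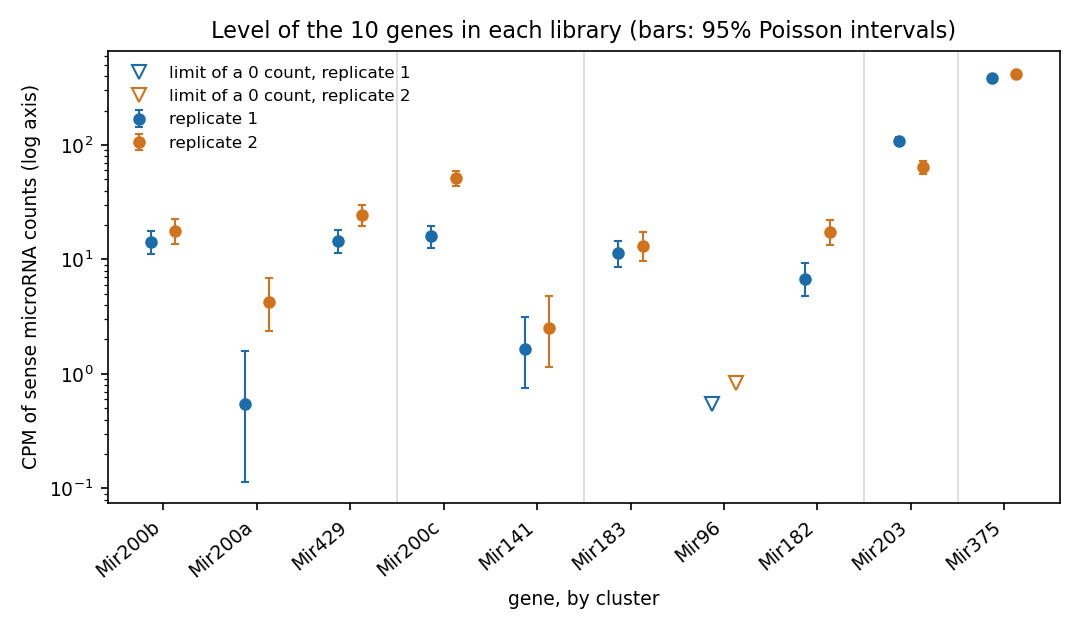
Level of the 10 genes, grouped by cluster, as CPM of sense microRNA counts on a log axis, with 1 point for each library and 95% Poisson intervals as bars. Mir375 stands highest at 386 and 418 CPM, Mir200a and Mir141 lie below 5 CPM, and open triangles mark the limits of 0.548 and 0.842 CPM that the counts of 0 for Mir96 allow.

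Mir375, the endocrine microRNA, had 2116 counts in replicate 1 and 1490 in replicate 2, or 386 and 418 CPM, a mean of 402 ± 22.6 CPM (SD, n = 2). It ranked 152nd of the 429 detected genes by mean CPM. The libraries lay close together, and no other of the 10 genes had a smaller coefficient of variation, which was 5.62%. The detected genes nearest to it in mean level were Mir669c, of the repeat cluster in Sfmbt2, at 399.9 CPM, and Mir212, the neuronal partner of Mir132, at 409.9 CPM.

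Mir203, the skin microRNA, had 596 and 229 counts in replicates 1 and 2, or 109 and 64.3 CPM, a mean of 86.5 ± 31.5 CPM (SD, n = 2). It ranked 217th of the detected genes, near the middle of the order. Its ranges over the libraries overlapped with neither Mir375 above it nor Mir200c below it. Mir375 exceeded it 3.55-fold in replicate 1 and 6.51-fold in replicate 2. Nearest in mean level were Mir669l at 86.6 CPM and Mir542 at 86.4 CPM.

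The mir-200 family, the epithelial group, was led by the 3 genes with the seed AAUACUG. Mir200c had 87 counts in replicate 1 and 182 in replicate 2, or 15.9 and 51.1 CPM, and ranked 263rd. Mir429 had 79 and 87 counts, or 14.4 and 24.4 CPM, and ranked 293rd. Mir200b had 78 and 63 counts, or 14.2 and 17.7 CPM, and ranked 303rd. In replicate 1 the highest of these 3 genes had 1.12 times the counts of the lowest, and in replicate 2 it had 2.89 times, with Mir200c highest in each. Over the libraries the ranges of Mir200c and Mir429 overlapped, as did those of Mir429 and Mir200b, so the order within this group was not resolved.

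The genes with the seed AACACUG were far lower in the same clusters. Mir200a had 3 counts in replicate 1 and 15 in replicate 2, or 0.548 CPM (95% Poisson interval 0.113 to 1.60) and 4.21 CPM (2.36 to 6.94). Mir141 had 9 counts in each library, or 1.64 CPM (0.751 to 3.12) and 2.53 CPM (1.15 to 4.79). Their ranges overlapped, so which of them was lower was not resolved.

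The detected genes of the sensory cluster stood near Mir200b, the range of Mir183 just below it and that of Mir182 across it. Mir183 had 62 counts in replicate 1 and 47 in replicate 2, or 11.3 and 13.2 CPM, and ranked 318th. Mir182 had 37 and 62 counts, or 6.75 and 17.4 CPM, and ranked 321st. Mir183 was the higher of the pair in replicate 1 and the lower in replicate 2. Mir96, between them, had no count on either strand in either library, so where its reads have a unique place the limit of 3 counts for a count of 0 applies, which is 0.548 CPM for replicate 1 and 0.842 CPM for replicate 2. Against that limit of 3 counts per library, Mir183 as counted was at least 20.7-fold higher in replicate 1 and at least 15.7-fold higher in replicate 2. Mir182 as counted was at least 12.3-fold and at least 20.7-fold higher than Mir96. These folds leave out the counting error of Mir183 and Mir182 themselves.

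Genes made from 1 cluster can be compared within a library with no scaling. In the chromosome 4 cluster, Mir200b held 48.75% of the counts in replicate 1 and 38.2% in replicate 2, and Mir429 49.4% and 52.7%. Mir200a, which lies between them, held 1.88% (95% Clopper-Pearson interval 0.388 to 5.38) and 9.09% (5.18 to 14.6). The intervals for Mir200b and Mir429 overlap within each library, while those for Mir200a lie below both. In the chromosome 6 cluster, Mir200c held 90.6% (82.9 to 95.6) in replicate 1 and 95.3% (91.2 to 97.8) in replicate 2, and Mir141 the rest. Per library, Mir200c had 9.67 and 20.2 times the counts of Mir141.

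**Figure D2:**
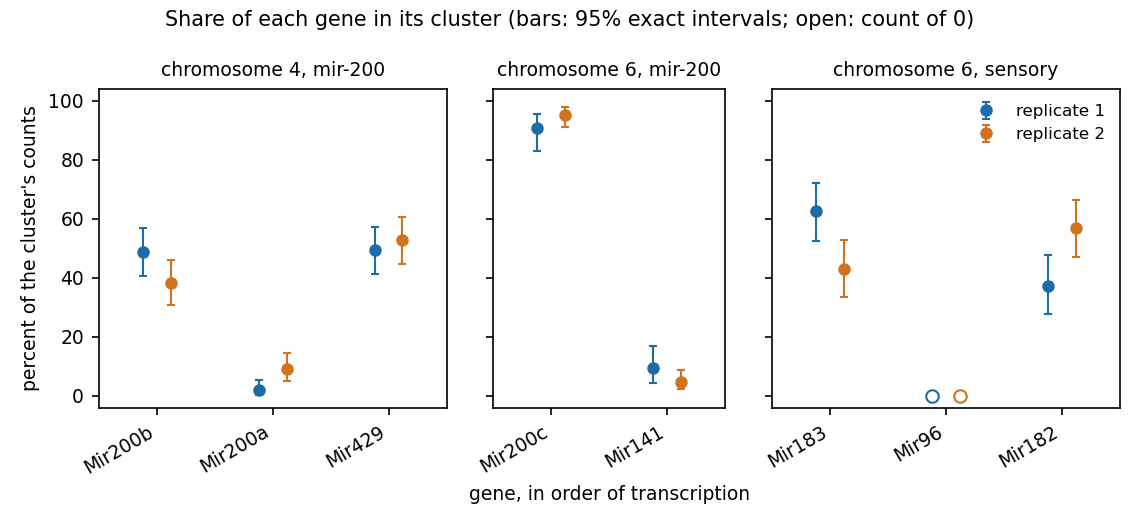
Percent of a cluster's sense counts held by each gene, in the order of transcription, with 1 point for each library, 95% exact intervals as bars and open points for counts of 0. Mir200a at 1.88% and 9.09% and Mir141 at 9.38% and 4.71% lie below their cluster neighbours in each library. Mir182 lies below Mir183 in replicate 1 and above it in replicate 2, where their intervals overlap.

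By seed, genes with AAUACUG held 95.3% (92.0 to 97.6) of the mir-200 counts in replicate 1 and 93.3% (90.1 to 95.6) in replicate 2, and genes with AACACUG 4.69% and 6.74%. Over the family this split was alike in the libraries, with an SD of 1.45 percentage points (n = 2), though AACACUG had only 12 and 24 counts. Within the clusters the values as counted moved in opposite directions. On chromosome 4, AAUACUG had 52.3 times the counts of AACACUG in replicate 1 and 10 times in replicate 2. On chromosome 6 it had 9.67 times (95% interval 4.86 to 21.8) and 20.2 times (10.4 to 44.9). These intervals overlap, and those for the share of Mir200a on chromosome 4 overlap narrowly, so neither move was resolved by them. The source of the family's counts differed between the libraries. The Mir200c cluster held 37.5% (31.6 to 43.7) of them in replicate 1 and 53.7% (48.3 to 58.9) in replicate 2. Reads that match several places, 43.2% of all reads in replicate 1 and 39.3% in replicate 2, are in no gene count. The longest stretch that the printed arm shares with another microRNA gene was 16 nt for Mir200a and Mir141, the low pair, 12 nt for Mir429 and 10 to 11 nt for Mir200b, Mir200c, Mir183, Mir96, Mir182 and Mir203. No other annotated microRNA gene holds any of the printed mature arms whole. Whether reads matching several places lowered Mir200a and Mir141 was not tested.

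In the sensory cluster, Mir183 held 62.6% (52.3 to 72.1) of the counts in replicate 1 and 43.1% (33.7 to 53.0) in replicate 2, and Mir182 37.4% and 56.9%. By the same limit of 3 counts, Mir96 could hold up to 3.03% of the cluster in replicate 1 and 2.75% in replicate 2.

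The libraries were next compared by a two-sided exact binomial test on counts scaled by trimmed mean of M-values (TMM), with Benjamini-Hochberg adjustment over all 429 detected genes. It asks whether these libraries differ beyond counting error, and says nothing of a condition. Of the 7 genes tested, 4 passed an adjusted p of 0.05, beside 61.3% of all detected genes and 25.5% of those with a mean under 100 counts. Of the 7 tested, 3 passed as higher in replicate 2, beside 28.7% of detected genes, and 1 as lower, beside 32.6%. Among all detected genes that passed, 46.8% were higher in replicate 2. The median log2 ratio of replicate 2 to replicate 1 was 0.25 for the 7 genes and 0.05 for all detected genes, and the medians of its absolute value were 0.70 and 0.33.

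Mir200c had the largest difference among the tested genes, 3.07-fold higher in replicate 2 (95% interval 2.38 to 4.03; exact binomial test, adjusted p = 9.46e-19). Of all detected genes, 96.0% had a smaller absolute log2 ratio. Mir182 was 2.46-fold higher in replicate 2 (1.62 to 3.82; exact binomial test, adjusted p = 2.79e-05). Mir429 was 1.62-fold higher (1.18 to 2.23; exact binomial test, adjusted p = 0.00373). Mir203 went the other way, at 0.567 of its replicate 1 level (0.484 to 0.661; exact binomial test, adjusted p = 1.34e-13).

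Mir375, Mir200b and Mir183 missed the threshold. The ratio of Mir375 was 1.04 (0.970 to 1.11), that of Mir200b 1.19 (0.840 to 1.68) and that of Mir183 1.12 (0.748 to 1.66). Differences within these intervals are not excluded. Mir200a and Mir141 were not tested. A ratio of at least 2-fold, found for 11.9% of detected genes, was seen for Mir200c and Mir182. In the sensory cluster Mir182 passed and Mir183 did not. Their intervals share the stretch from 1.62 to 1.66, and the difference between these neighbours was not tested.

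**Figure D3:**
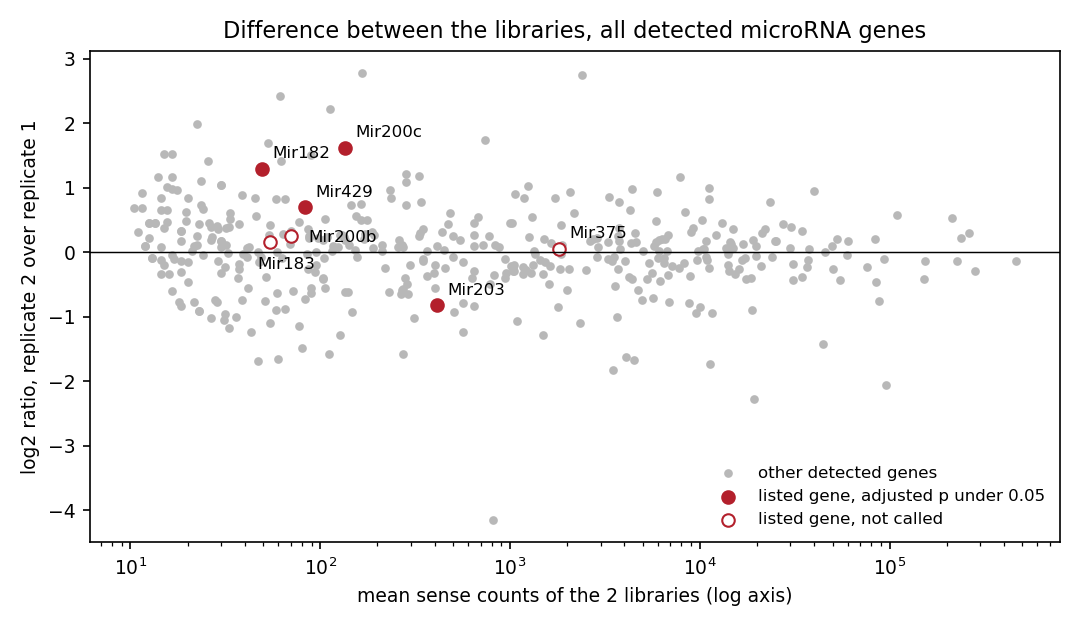
Log2 ratio of replicate 2 to replicate 1 against the mean sense count on a log axis, with 1 point for each of the 429 detected genes. Filled points are Mir200c, Mir182, Mir429 and Mir203, which passed an adjusted p of 0.05, and open points are Mir375, Mir200b and Mir183, which did not.

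Summed, the mir-200 genes stood at 46.7 CPM (95% Poisson interval 41.2 to 52.8) in replicate 1 and 99.9 CPM (89.8 to 111) in replicate 2. The sensory cluster stood at 18.1 CPM (14.7 to 22.0) and 30.6 CPM (25.1 to 36.9). All 10 genes together stood at 559.7 CPM (540.1 to 579.9) and 613 CPM (587 to 639). These CPM are scaled by library totals and not by TMM. On that scale the intervals of the libraries do not overlap for either group or for all 10 genes. With TMM, replicate 2 was 2.05 times replicate 1 for the mir-200 genes and 1.62 times for the sensory cluster. For all 10 genes it was 1.05 times, and whether the sums differ on the TMM scale was not tested. Of all detected genes, 61.3% were called between these libraries. Of the mir-200 counts, Mir200c alone had 87 of 256 in replicate 1 and 182 of 356 in replicate 2. In bulk tissue, more cells of a type and more RNA per cell cannot be told apart.

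Markers of other cell types that the dissected tissue could hold were read beside these levels. For choroid plexus and ependyma, the epithelia that line the ventricles, a list of microRNAs known from them was read. Of its 11 members found, 8 were detected. The list held 0.639% of the counts in replicate 1 and 0.635% in replicate 2, which is 36.8 and 32.6 times the counts of the 9 genes without Mir375. Its members Mir449a and Mir204 had 11700 and 7105 counts in replicate 1 and 6149 and 5549 in replicate 2. By the exact binomial test Mir449a was lower in replicate 2 and Mir204 higher. The members that missed the minimum were Mir211, Mir449b and Mir449c. They had 15, 3 and 18 counts in replicate 1 and 6, 1 and 4 in replicate 2. Beside the shares of that list, the mir-200 genes held 0.00467% in replicate 1 and 0.00999% in replicate 2. By the exact binomial test, 3 of the list's 8 tested genes were higher, 2 lower in replicate 2 and 3 were not called, where 28.7% of all detected genes were higher and 32.6% lower. The list of blood microRNAs held 0.00836% and 0.0113%, with 1 of 4 genes, Mir142, higher in replicate 2 and 3 not called. Mir142 had 154 of the 458 counts of this list in replicate 1 and 175 of 404 in replicate 2. Which cells supplied the counts of either list was not tested, nor was the part of these cell types in the levels of the 10 genes.

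Other epithelial microRNAs were mostly in the range of the mir-200 genes. Mir205, of squamous epithelium, had 34 and 26 counts in replicates 1 and 2, and Mir192 and Mir194-2, of gut and kidney, had 39 and 36 and 136 and 98. Mir31 lay far above it, with 5855 counts in replicate 1 and 1123 in replicate 2. Of the 5 detected genes of this list, 2, Mir31 and Mir224, were lower in replicate 2 and 3 were not called, beside 32.6% of all detected genes lower. Mir215 and Mir194-1 lay below it, with 2 counts each in replicate 1 and 0 in replicate 2.

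Other endocrine and pancreas microRNAs gave a mixed picture beside Mir375. Mir7b and Mir7-2, known from endocrine cells and neurons, stood at 2221 and 329.6 CPM in replicate 1 and 2615 and 656 CPM in replicate 2. Mir217, of pancreatic acinar cells, had 195 counts in replicate 1 and 86 in replicate 2, and Mir216a had 28 and 3. A list of neuron microRNAs was read too, though the series holds no other tissue or brain region to check the label against. Its genes held 2.70% and 2.96% of the counts, with 7 of 9 detected, and Mir132 led at 8514 and 7545 CPM. The 3 Mir124a genes of that list, known from neurons, had few counts. In replicate 1 these were 10, 5 and 9 for Mir124a-1, Mir124a-2 and Mir124a-3, and in replicate 2 they were 20, 3 and 5. The 3 genes are copies of 1 microRNA, whose reads can match several places and then go uncounted.

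**Figure D4:**
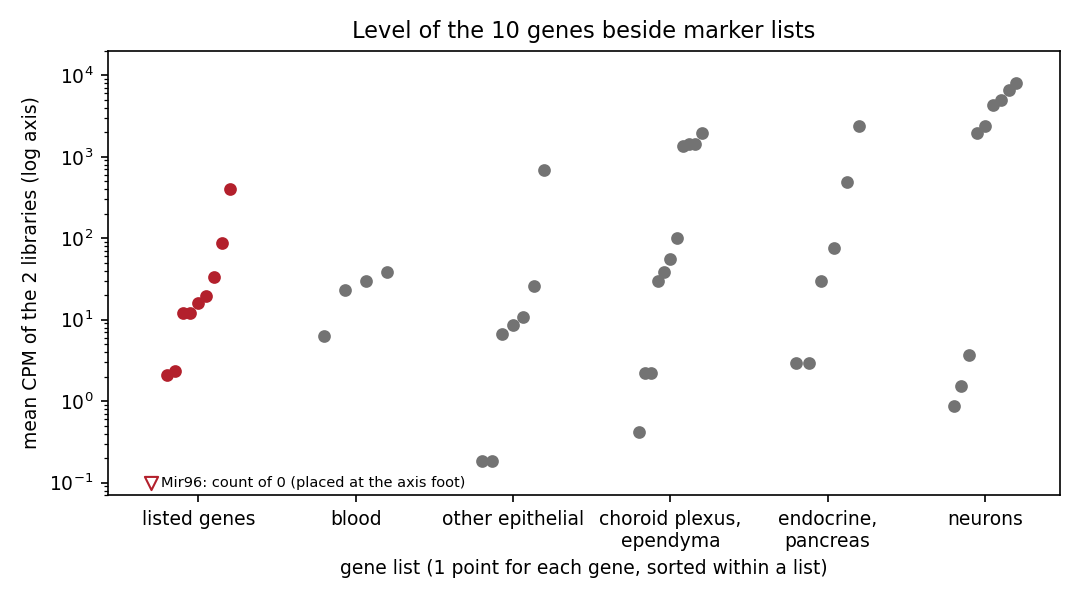
Mean CPM of both libraries on a log axis for the 10 genes and for 5 marker lists, with 1 point for each gene, sorted within a list. By mean, Mir375, the highest of the 10 at 402 CPM, lies below the leading genes of the other epithelial, choroid plexus, endocrine and neuron lists. In replicate 2 alone, Mir31, which leads the other epithelial list, stood at 315 CPM, below Mir375 at 418 CPM. Mir96, with a count of 0, is placed at the foot of the axis.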

How the data were processed

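Each library has its own file of raw counts, deposited by the authors as reads per microRNA gene. Per the notes deposited beside it, reads were placed on mm10 with annotation M21. Which aligner, counter and filters were used is not given in the sources here. The strand column with the larger total over gene rows was taken as sense. The 4 rows without a gene were left aside. Replicate 1 had 15058588 reads, 43.2% of them placed at several sites, 14.2% unmapped and 6.16% outside genes. Replicate 2 had 9483409, with 39.3%, 18.0% and 5.17%. Symbols, positions and host genes came from GENCODE M21.

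CPM divides sense counts by their sum over microRNA genes. TMM factors (0.979 and 1.02) came from edgeR 4.0.16 and size factors from DESeq2 1.42.0 in R 4.3.3; a quasi-likelihood fit has no contrast here. The exact binomial test used scipy 1.17.1, with 0.5 counts added to each library for log2 ratios, and was tested on simulated data. Intervals are exact at 95%, and a count of 0 allows up to 3 counts.

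The 10 genes and the lists were chosen with earlier results of these data known. Named genes are the 10, the marker lists and the 2 detected Mir genes nearest in mean CPM to each of the 10; list genes matched by symbol, except Mir1911, which is not used here. Each result was recomputed with other minimums, unstranded counts, other scalings and denominators, 0.1 counts added, the set without Mir375, and each library left out.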

Additional observations from a re-analysis of the deposited data

Results flagged for a closer look

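Counts on the strand opposite to Mir203 numbered 5 in replicate 1 and 4 in replicate 2, above the 3 counts that a count of 0 allows. They enter no sense count and were used only in the counts without regard to strand. Mir203 has no gene annotated on its opposite strand. Of the other genes, Mir183 had 3 and 1 and Mir182 2 and 0 opposite-strand counts, and the other 7 had none. Over the 10 genes, opposite-strand counts were 0.325% (95% Clopper-Pearson interval 0.156 to 0.597) of sense plus antisense counts in replicate 1 and 0.228% (0.0742 to 0.532) in replicate 2. Over all microRNA genes the shares were 5.55% and 5.71%. There, counts without regard to strand, 5157975 in replicate 1 and 3347853 in replicate 2, were below the sense totals of 5479267 and 3563226. Over all genes, opposite-strand counts thus do not simply add to sense counts, and these shares give no background level for the 10 genes.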

How the results depend on the processing

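No ratio between the libraries changed direction under other scalings, count minimums, strand handling or 0.1 added counts, for any of the 7 tested genes. The calls of Mir200c, Mir182, Mir429 and Mir203 held wherever they were tested. With library totals in place of TMM, Mir375 also passed, with a log2 ratio of 0.11 and an adjusted p of 0.0333 by the exact binomial test, where its alternatives ran from 0.0333 to 0.485, while the median of all detected genes was 0.11. With at least 1 count in each library 5 genes passed, Mir200a added. With at least 100 counts in each library, 2 genes were detected and 1 passed, Mir203, since fewer genes were tested. Counts without regard to strand gave a share of 0.0625% for the 10 genes and 0.678% for the choroid plexus list, because the total was smaller. With all reads as the denominator these were 0.0217% and 0.236%. Without Mir375 the share was 0.0184%, and of the counts of the 9 genes AAUACUG held 36.7%, AACACUG 2.36%, AUGGCAC of Mir183 6.65%, UUGGCAA of Mir182 6.41% and UGAAAUG of Mir203 47.8%. These means hide a change of lead, since AAUACUG held 25.7% in replicate 1 and 47.8% in replicate 2 and UGAAAUG 62.7% and 33.0%. AACACUG held 1.26% and 3.46% and UUGGCAA 3.89% and 8.93%. Leaving out replicate 1 or replicate 2 gave 0.0613% or 0.0560% for the share and 8 or 7 genes detected. The means of Mir200c, Mir200a and Mir182 rest most on 1 library, at 51.1, 4.21 and 17.4 CPM without replicate 1 and 15.9, 0.548 and 6.75 CPM without replicate 2. No paired analysis was possible because the series has a single group. Depth limits Mir200a, Mir141 and Mir96 most: 1 count is worth 0.183 CPM in replicate 1 and 0.281 CPM in replicate 2.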

Other observations

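The detected microRNA genes nearest in mean level to the low genes were read off in the same way as for Mir375 and Mir203. Mir3085 at 33.7 CPM and Mir3547 at 33.9 CPM were nearest to Mir200c, Mir7066 and Mir6516 at 19.6 and 19.7 CPM to Mir429, and Mir3070a and Mir3074-1 at 16.1 and 15.8 CPM to Mir200b. Mir7666 and Mir7070 at 12.2 and 12.1 CPM were nearest to Mir183, Mir7070 and Mir3083 at 12.1 and 11.98 CPM to Mir182, and Mir7023, at 2.46 CPM, and Mir5122 to both Mir200a and Mir141. This is a likeness of level over 2 libraries only.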
